A study of Rattus norvegicus with 15 samples.

Results

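Fat cells store energy as triglyceride, and the 10 genes described here encode the enzymes that build it and the proteins that supply its glycerol backbone: Gpam, Agpat2, Agpat3, Lpin1, Dgat1, Dgat2, Gpd1, Pck1, Aqp7 and Gyk. They were found on the array as the probe sets whose platform annotation names 1 of these genes and no other, and Gyk, the glycerol kinase gene, is listed there as Gk. All 10 of 10 genes were found among 14217 named genes, with 20 probe sets, of which 16 passed the filter on low signals. The 4 that did not were 3 of the 6 probe sets of Agpat3 and 1 of the 2 of Gyk.

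The tissue was epididymal fat, the visceral depot beside the testis, of 15 male Long-Evans rats from 1 private colony, each measured on its own Affymetrix RAE230_2 array. From weaning, 7 rats ate a diet high in fat and sucrose (TD95217) and formed the group with diet-induced obesity, while 8 rats ate regular chow (Purina 5008) and formed the lean group. All rats lived singly with free access to food, were given an oral glucose load after a fast at 21 weeks of age and were killed in the fed state at 26 weeks. The effects of diet and of obesity cannot be told apart, and in whole tissue fewer cells of a type and less RNA per cell cannot be told apart.

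In the glycerol phosphate pathway of triglyceride synthesis, glycerol 3-phosphate receives its acyl chains in turn, loses its phosphate and takes up a last acyl chain. Fat cells make the glycerol 3-phosphate by reducing dihydroxyacetone phosphate, through Gpd1. That intermediate comes from glycolysis, or from pyruvate and amino acids through Pck1 (glyceroneogenesis), so Gpd1 serves both routes. Direct phosphorylation of glycerol by glycerol kinase is known to be low in white fat, so most glycerol freed by lipolysis leaves the cell, largely through the channel Aqp7.

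The values are MAS5 signals on a linear scale, with a trimmed mean between 1500.34 and 1500.42 on every array. Obese rat 1 and lean rat 7 gave nearly identical arrays: their median difference over probe sets was 0.13 on the log2 scale, against 0.24 to 0.42 in all other pairs of arrays. The results on the 10 genes are therefore given with all 15 arrays and without this pair, which leaves 6 obese and 7 lean rats (13 arrays). Signals by rat and values with no set of arrays named are those of the 13 arrays. All 10 fat cell markers listed for this work were on the array and passed the filter. Of the muscle markers 5 were on the array and 2 passed, and of the markers of testis and epididymis 5 were on the array and 1 passed, the widely expressed Clu. The p-values weigh group differences against the spread between these rats and take the rats as independent. The labels do not give their litters, so that could not be checked.

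Without the near-identical pair, Gpd1 and Lpin1 rose in obese fat, by 1 probe set each, and the other 8 genes did not pass the test. Gpd1 signal was 2.28-fold higher and Lpin1 signal 1.61-fold higher on the fitted scale. These were 2 of 16 probe sets tested, against a background of 1.01% of all 18625 probe sets, or 189, of which 135 were higher and 54 lower. After centring of each array on its median, 357 were higher and 32 lower. The groups did not overlap in the same 2 of 16 probe sets, against a background of 1.45%. With all 15 arrays 0 of 16 passed limma, against a background of 0%. The exact permutation test adjusted over all probe sets called 0 as well. Whether it calls any depends on how many probe sets share a small p, so this count is also limited by the number of regroupings. The smallest p that 6435 regroupings can give requires groups that do not overlap. That held for 36 of 18625 probe sets, too few for that p to pass the adjustment. Without the pair the smallest p that 1716 regroupings can give came to 0.0571 after that adjustment, so the exact test called no probe set there. In the comparison of 15 arrays 7 of the 16 had an unadjusted p under 0.05, as had 2898 of all 18625, and no probe set of the 16 separated the groups, against a background of 0.193%. The median log2 fold change over the 16 was 0.20 without the pair and 0.18 with all arrays, beside -0.04 over all probe sets in both comparisons. Of the 16, 12 were positive in both, beside 42.2% of all probe sets without the pair and 42.5% with all arrays; median centring moved these shares to 63.0% and 63.5%.

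**Figure D1:**
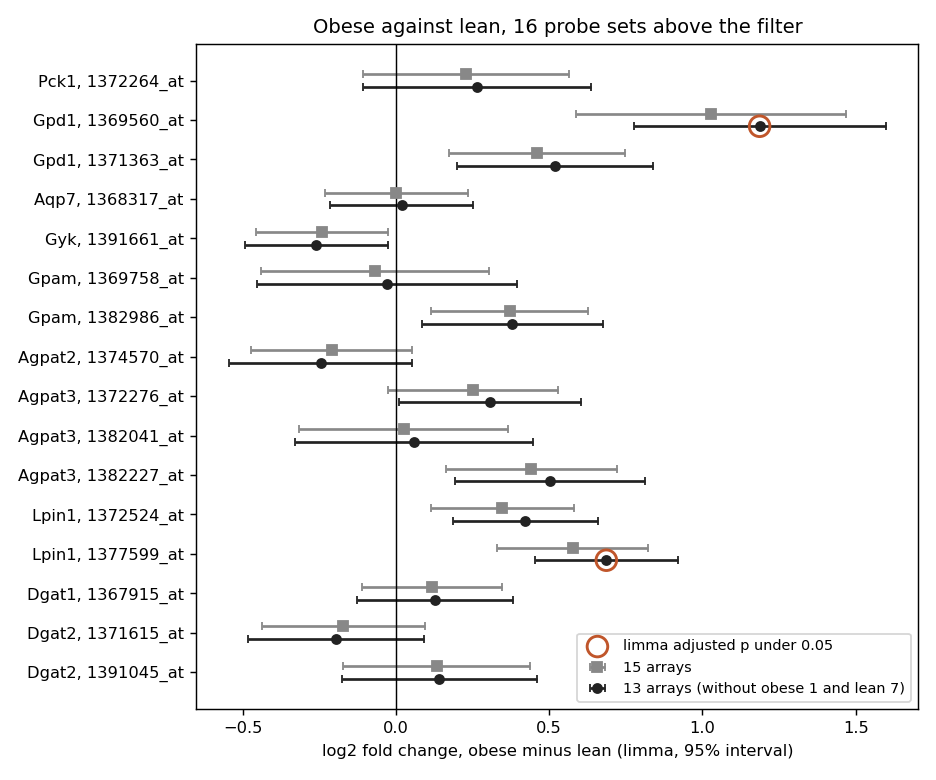
Log2 fold change of obese against lean rats (x axis, limma, with 95% intervals) for the 16 probe sets above the filter, ordered from glycerol supply at the top to the last acylation at the bottom; squares show 15 arrays and circles 13 arrays. Gpd1 1369560_at, at 1.19, and Lpin1 1377599_at, at 0.69, lie farthest to the right and alone are ringed as past the threshold in the 13-array comparison.

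Gpd1 (Entrez gene 60666) encodes the cytosolic glycerol 3-phosphate dehydrogenase, which turns dihydroxyacetone phosphate into glycerol 3-phosphate. Its signal on probe set 1369560_at ran from 9246 to 16415 in the 6 obese rats, with a median of 14131, and from 3343 to 8810 in the 7 lean rats, with a median of 5639. The lowest obese rat lay above the highest lean rat. The obese mean was 13510 ± 2645 (SD, n = 6) and the lean mean 6007 ± 1720 (SD, n = 7). The log2 fold change was 1.19 ± 0.19 (SE; limma adjusted p = 0.0138), and the exact two-sided permutation test over 1716 regroupings gave p = 0.00117, or 0.0728 after adjustment over all probe sets. With all 15 arrays it was 1.03 ± 0.21 (SE; limma adjusted p = 0.0948). There lean rat 7, at 11937, lay above 3 obese rats, those numbered 1, 2 and 6, so the groups overlapped. Leaving out obese rat 1 alone from the 15 arrays gave 1.06 (limma adjusted p = 0.0304). No other single rat left out of the 15, lean rat 7 included, took this probe set past the threshold.

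The other Gpd1 probe set, 1371363_at, moved the same way by less. Its signal ran from 68939 to 138584 in the 6 obese rats, with a median of 85538, and from 49970 to 73032 in the 7 lean rats, with a median of 65460. Obese rat 3 held the highest value, and 5 of 6 obese rats lay above every lean rat. It differed by 0.52 ± 0.15 on the log2 scale (SE; limma adjusted p = 0.101) without the pair and 0.46 ± 0.14 (SE; limma adjusted p = 0.145) with all arrays. It passed under quantile normalization (0.50, limma adjusted p = 0.0411) and median centring (0.63, limma adjusted p = 0.0344) of the 13 arrays. The mean over both Gpd1 probe sets gave 0.85 ± 0.15 without the pair (SE; limma adjusted p = 0.0128) and 0.74 ± 0.15 with all arrays (SE; limma adjusted p = 0.0557).

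Lpin1 (Entrez gene 313977) encodes lipin 1, the phosphatidate phosphatase that removes the phosphate to leave diacylglycerol and also acts with nuclear receptors in the control of transcription. On probe set 1377599_at its signal ran from 4664 to 6207 in the 6 obese rats, with a median of 5692, and from 2740 to 3873 in the 7 lean rats, with a median of 3531. The 2 ranges did not overlap. The obese mean was 5599 ± 624.5 (SD, n = 6) and the lean mean 3454 ± 428 (SD, n = 7). Lpin1 rose by 0.69 ± 0.11 on the log2 scale (SE; limma adjusted p = 0.0138). The exact two-sided permutation p was 0.000583, the smallest that 1716 regroupings can give, and its adjusted value over all probe sets was 0.0571. In the 15 arrays the change was 0.58 ± 0.12 (SE; limma adjusted p = 0.0948). The near-identical arrays then read 3976 in obese rat 1 and 4350 in lean rat 7, the lowest obese and the highest lean value. Leaving out obese rat 1 alone gave 0.64 (limma adjusted p = 0.013). No other single rat left out of the 15, lean rat 7 included, took this probe set past the threshold.

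The second Lpin1 probe set, 1372524_at, had a median of 6855 in the 6 obese rats (5875 to 8510) and of 5009 in the 7 lean rats (4384 to 6207). Here 5 of 6 obese rats lay above every lean rat. On the log2 scale it differed by 0.42 ± 0.11 (SE; limma adjusted p = 0.079) without the pair and 0.35 ± 0.11 (SE; limma adjusted p = 0.164) with all arrays. It passed in the 13 arrays with the filter at the 60th percentile (limma adjusted p = 0.0439), with eBayes set to trend and robust (0.0413) and with median centring (0.0344). The mean over both Lpin1 probe sets gave 0.55 ± 0.10 without the pair (SE; limma adjusted p = 0.0128) and 0.46 ± 0.10 with all arrays (SE; limma adjusted p = 0.0734).

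**Figure D2:**
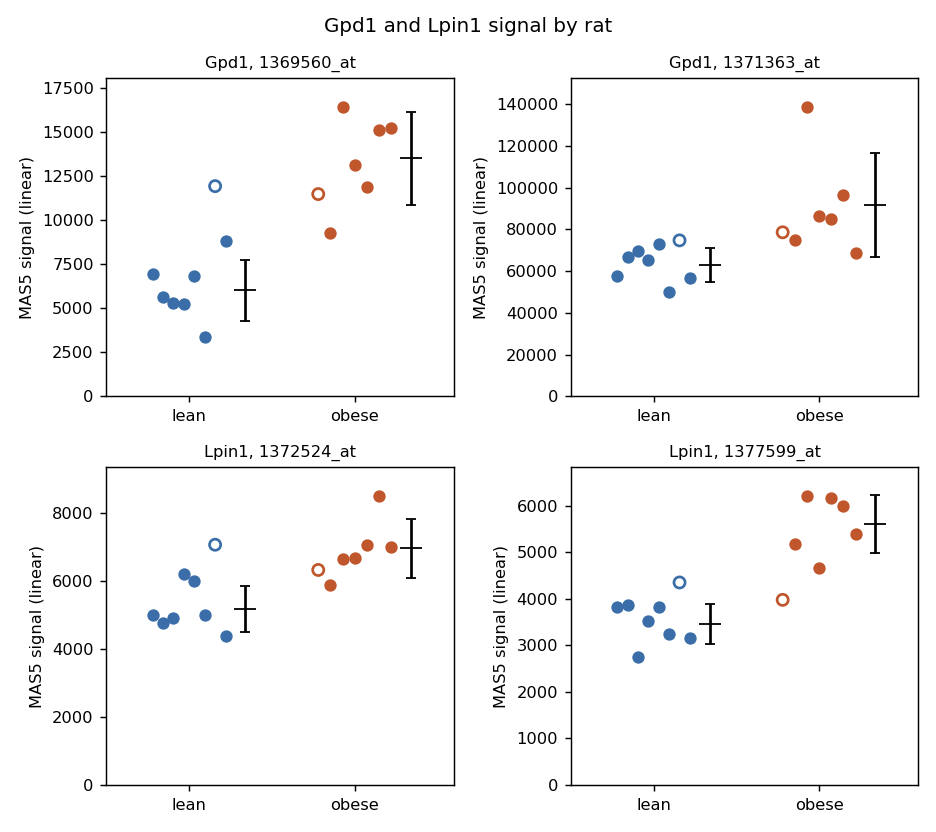
MAS5 signal (y axis, linear, from 0) of the Gpd1 and Lpin1 probe sets in each rat, lean in blue and obese in orange; open circles are lean rat 7 and obese rat 1, and black bars show the mean and SD of the other rats. For Gpd1 1369560_at the filled obese points start at 9246, above the highest filled lean point at 8810.

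Of the 10 genes, 6 had an entry in the RefSeq promoter table (assembly GRCr8), which gives 250 bases before to 50 bases after a gene's start. Gpd1 had none. The windows of Lpin1, which rose, and of Pck1, whose cAMP-responsive promoter is a textbook example, are printed because both hold a relative of the cAMP response element, and matches to TGANGTCA or TNACGTCA are in capitals. The Lpin1 window is chr6:45108893-45109192 (minus strand) and the Pck1 window chr3:182348322-182348621 (plus strand), each printed 5′ to 3′ along its gene.
Lpin1: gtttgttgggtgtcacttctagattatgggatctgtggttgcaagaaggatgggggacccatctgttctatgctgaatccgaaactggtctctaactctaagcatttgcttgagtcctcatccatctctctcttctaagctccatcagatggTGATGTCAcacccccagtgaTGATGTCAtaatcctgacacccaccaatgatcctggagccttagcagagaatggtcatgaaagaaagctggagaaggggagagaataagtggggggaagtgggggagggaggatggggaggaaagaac
Pck1: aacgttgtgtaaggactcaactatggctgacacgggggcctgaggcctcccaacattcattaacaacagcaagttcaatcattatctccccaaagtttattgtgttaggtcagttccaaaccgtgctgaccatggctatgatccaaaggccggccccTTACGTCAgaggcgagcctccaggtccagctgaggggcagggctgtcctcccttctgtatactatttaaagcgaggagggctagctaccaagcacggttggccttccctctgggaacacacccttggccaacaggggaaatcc
The Lpin1 window held TGANGTCA at 2 places, starting 98 and 78 bases before the start site, and the Pck1 window held TNACGTCA once, starting 93 bases before it. Over both strands, TGANGTCA was found in 10.2% and TNACGTCA in 3.25% of all 33469 windows; the full palindromic element would count for both. The other 4 windows, of Gpam, Agpat2, Agpat3 and Gyk, held neither. AGGTCA, the half-site of many nuclear receptors, was found in Pck1 and Agpat3 and in 16.2% of all windows, and CACGTG, the core bound by carbohydrate-response and related factors, in none of the 6 and in 6.42% of all. CCAAT was also searched, and was found in Gpam, Lpin1 and Gyk and in 37.5% of all windows. A match describes the letters and is not a measured site. A link of these letters to the change in Lpin1 was not tested.

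Among the other genes of glycerol supply, no probe set passed. Pck1 (362282), the cytosolic phosphoenolpyruvate carboxykinase and the controlled step of glyceroneogenesis, had a median of 58604 in the 6 obese rats (40990 to 63243) and of 52636 in the 7 lean rats (30588 to 60337). The groups overlapped over most of their range. On the log2 scale Pck1 differed by 0.26 ± 0.17 (SE; limma adjusted p = 0.452), with a 95% interval from -0.11 to 0.64. Aqp7 (29171), the channel through which glycerol crosses the fat cell membrane, had a median of 27258 in obese (23429 to 33426) and of 26975 in lean rats (22120 to 31215). Its log2 fold change was 0.02 ± 0.11 (SE; limma adjusted p = 0.948), with a 95% interval from -0.21 to 0.25, and quantile normalization turned its sign, to -0.10. The interval leaves room for changes of either sign. In the 15 arrays Pck1 differed by 0.23 ± 0.16 and Aqp7 by 0.0019 ± 0.11 (SE; limma adjusted p = 0.508 and 0.994).

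Gyk (79223), which phosphorylates free glycerol, was lower in obese fat without passing. On probe set 1391661_at it had a median of 830.7 in the 6 obese rats (646 to 1027) and of 998.5 in the 7 lean rats (849 to 1183). Of the 6 obese rats, 5 lay below the lean median. Its log2 fold change was -0.26 ± 0.11 (SE; limma adjusted p = 0.231), with an interval from -0.49 to -0.03, and -0.24 ± 0.10 over all 15 arrays (SE; limma adjusted p = 0.266). The Gyk probe set below the filter, 1387491_at, read between 19.7 and 374 over these 13 rats and went the other way, at 0.53 ± 0.29 without the pair and 0.32 ± 0.29 with all arrays (SE; limma adjusted p = 0.435 and 0.698 with no filter).

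At the steps before lipin, Gpam (29653), the mitochondrial acyltransferase that adds the first acyl chain, was dim, with its probe sets at percentiles 43.5 and 43.9 of mean signal against a filter at 40. Probe set 1382986_at had a median of 789.9 in the 6 obese rats (534 to 877) and of 520.1 in the 7 lean rats (440 to 711). All 6 obese rats lay above the lean median, and 4 lay above every lean rat. The log2 fold change was 0.38 ± 0.14 (SE; limma adjusted p = 0.171). The other Gpam probe set, 1369758_at, had -0.03 ± 0.20 (SE; limma adjusted p = 0.958), and its sign turned under median centring, to 0.09. Over all 15 arrays the 2 differed by 0.37 and -0.07 (limma adjusted p = 0.169 and 0.881).

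The acyltransferases of the second step are Agpat2, the fat cell form whose loss causes lipodystrophy, and its relative Agpat3. Agpat2 (311821) had a median of 4925 in the 6 obese rats (4652 to 6869) and of 5995 in the 7 lean rats (4428 to 8182). Obese rat 3 stood apart from the other obese rats as the highest. Agpat2 differed by -0.24 ± 0.14 on the log2 scale (SE; limma adjusted p = 0.378). Agpat3 (294324) had 3 probe sets above the filter, with log2 fold changes of 0.50 for 1382227_at, 0.31 for 1372276_at and 0.06 for 1382041_at (limma adjusted p = 0.101, 0.262 and 0.892). On 1382227_at the obese median was 1790 (1225 to 2371) and the lean median 1185 (1016 to 1663), and 5 of 6 obese rats lay above every lean rat. That probe set passed without obese rat 2 (0.61, limma adjusted p = 0.0482) and with median centring (0.62, limma adjusted p = 0.0407). The sign of 1382041_at turned with array weights, to -0.03. Over all 15 arrays Agpat2 differed by -0.21 and the 3 Agpat3 probe sets by 0.44, 0.25 and 0.03 (limma adjusted p = 0.43, 0.149, 0.368 and 0.953). The 3 probe sets below the filter had log2 fold changes from -0.16 to 0.59 and limma adjusted p from 0.353 to 0.883 with no filter, and over all 15 arrays from -0.17 to 0.55 with limma adjusted p from 0.452 to 0.876.

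The last acyl chain is added by Dgat1 or by Dgat2, which are unrelated in sequence and carry out the same reaction. Dgat1 (84497) had a median of 13264 in the 6 obese rats (12392 to 17144) and of 13169 in the 7 lean rats (10301 to 15861), or 0.13 ± 0.12 on the log2 scale (SE; limma adjusted p = 0.613). Dgat2 (252900) on probe set 1371615_at had a median of 56099 in obese (46072 to 68268) and of 67966 in lean rats (50595 to 76470), or -0.20 ± 0.14 on the log2 scale (SE; limma adjusted p = 0.473). The groups overlapped for both genes. The second Dgat2 probe set, 1391045_at, went the other way, at 0.14 ± 0.15 (SE; limma adjusted p = 0.657), so the array gives no single direction for Dgat2. Over all 15 arrays Dgat1 differed by 0.12 and the Dgat2 probe sets by -0.17 and 0.13 (limma adjusted p = 0.632, 0.533 and 0.699).

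**Figure D3:**
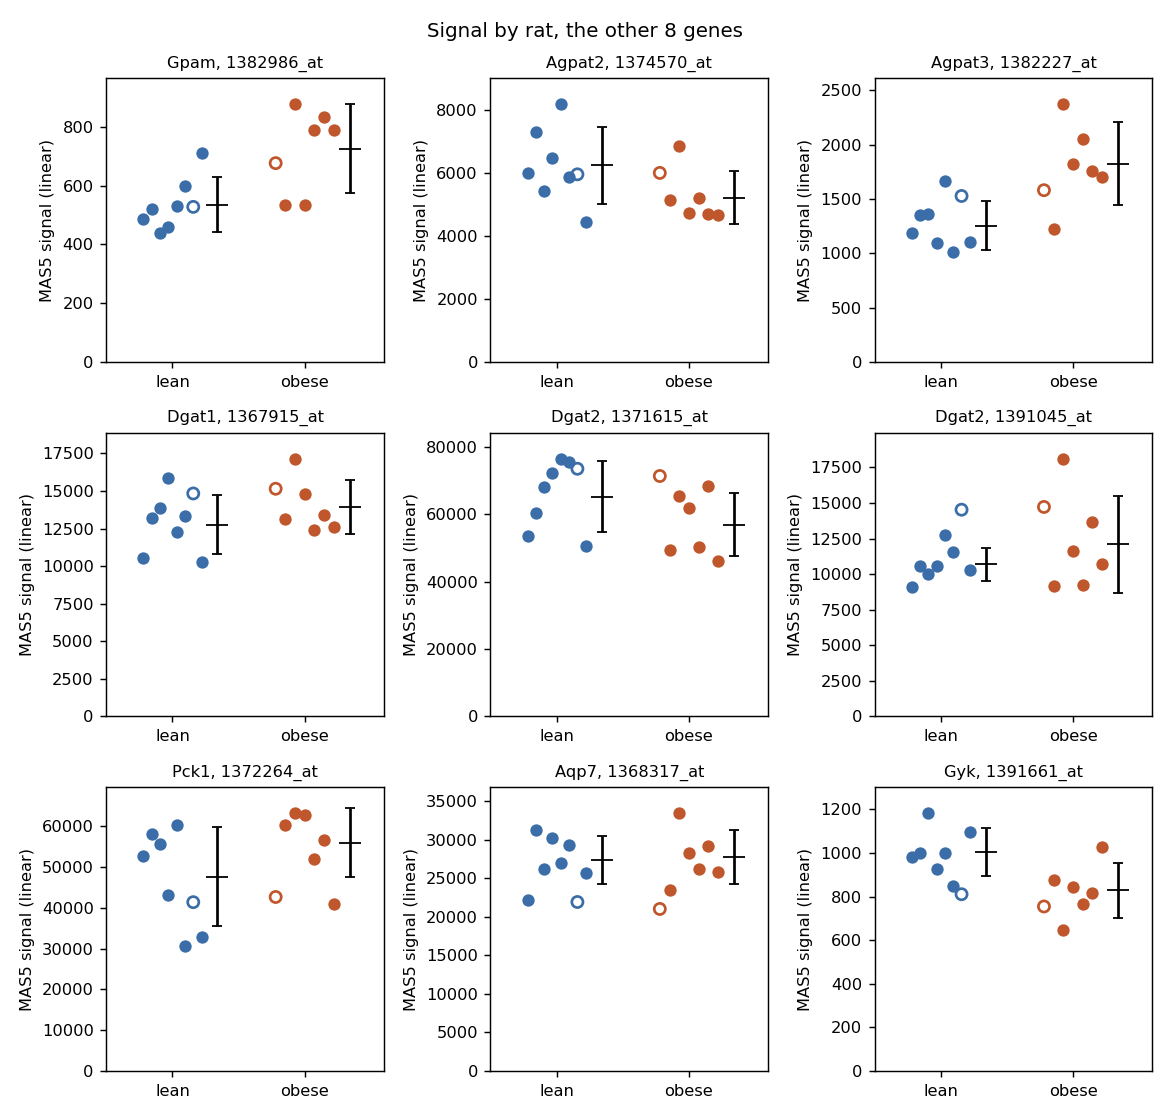
MAS5 signal (y axis, linear, from 0) in each rat for the other 8 genes, with both Dgat2 probe sets and the probe set of Gpam and of Agpat3 with the smallest p; colours, open circles and bars as in the plot of Gpd1 and Lpin1. Lean and obese points overlap in every panel, and the Dgat2 panels differ in which group has the higher mean.

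The difference in log2 signal between 2 genes within each array shows whether they changed unequally. The 4 pairs compared were the acyltransferases of the last step, those of the second step, and 2 pairs of genes of glycerol supply. Of the 4, using the brightest probe set of each gene, Dgat2 minus Dgat1 passed. The obese mean was 2.02 ± 0.18 (SD, n = 6) and the lean mean 2.34 ± 0.16 (SD, n = 7). They differed by -0.32 ± 0.09 (SE; exact permutation test, two-sided, p = 0.00932 and 0.0373 after adjustment over the 4 pairs), and 5 of 6 obese rats lay below the lean median. Over all 15 arrays the difference was -0.29 ± 0.09 (SE; exact permutation p = 0.00622, adjusted p = 0.0249). With the mean over both Dgat2 probe sets it was -0.16 without the pair and -0.14 with all arrays (exact permutation adjusted p = 0.146 and 0.151). It also missed the threshold under quantile normalization (0.122 and 0.104), in the 13 arrays without any 1 of obese rats 2, 3, 5 and 6 and lean rats 1, 3, 5, 6 and 8 (0.0519 to 0.0657), and in the 15 arrays without obese rat 2 or 3 (0.0533 each).

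The other 3 pairs did not pass with the brightest probe sets. Pck1 minus Gyk differed by 0.52 ± 0.22, Agpat2 minus Agpat3 by -0.31 ± 0.18 and Gpd1 minus Pck1 by 0.25 ± 0.15 (SE, n = 6 and 7; exact permutation adjusted p = 0.0723, 0.129 and 0.129). With all of a gene's probe sets above the filter averaged, these 3 passed in place of Dgat2 minus Dgat1, at 0.52, -0.53 and 0.59 (exact permutation adjusted p = 0.0482, 0.0117 and 0.0256). In the 15 arrays with those means they were 0.47, -0.45 and 0.51 (0.0354, 0.0124 and 0.0354). Pck1 and Gyk have 1 probe set each above the filter, so their own difference did not change and only the adjustment over the 4 pairs did. Pck1 minus Gyk also passed when obese rat 8 was left out of the 13 arrays (0.67, adjusted p = 0.0152).

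Among rats of the same group, 1 of 45 pairs of these genes varied together past the threshold. Agpat3 and Dgat2 had Pearson r = 0.86 over 13 rats after each group's mean was subtracted (permutation p = 0.00047, adjusted p = 0.0211) and Spearman rho = 0.84 (permutation p = 0.00113, adjusted p = 0.0508). Without the 2 rats farthest from the median in Agpat3, r was 0.85. The adjusted p missed the threshold with median centring (r = 0.82, 0.0891), with quantile normalization (r = 0.52, 0.226) and without any 1 of obese rats 2 and 6 and lean rats 3 and 5 (0.0639 to 0.072). Over 15 arrays r was 0.80 (0.0274). The genes of an array share its scaling. Gyk had negative r with each of the other 9 genes, from -0.56 with Agpat2 to -0.04 with Pck1 (Spearman rho 0.06), and none of these passed. Without the 2 rats farthest from the median of the other gene, r turned to 0.34 with Gpd1 and lay between -0.52 and -0.06 with the other 8.

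**Figure D4:**
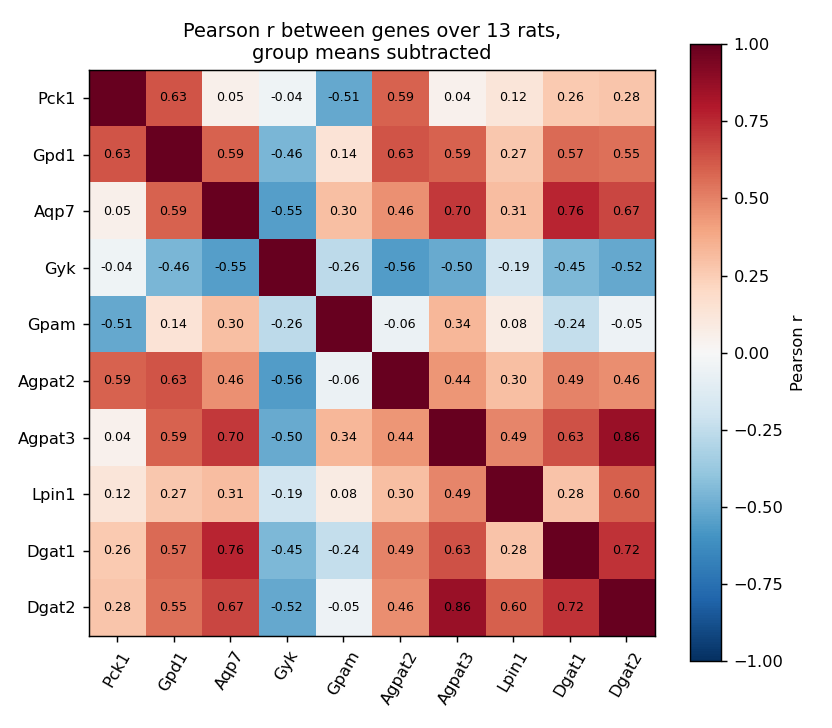
Pearson r (colour and printed value, from -1 to 1) between each pair of the 10 genes over 13 rats, on the log2 scale with group means subtracted and the brightest probe set of each gene. Agpat3 and Dgat2 have the highest value, 0.86, and the row of Gyk is negative throughout.

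The wider pathway was described with 6 gene lists, the brightest probe set of each gene standing for it. Other probe sets of a listed gene did not enter the counts and could differ from the brightest. Over all 10514 genes so tested without the pair, 1.1% passed (0.866% higher, 0.238% lower), 46.7% had a positive log2 fold change and the median was -0.02. By the same choice of probe set, 0 of the 10 genes themselves passed limma, since the passing probe sets of Gpd1 and Lpin1 are not the brightest of their gene. Of these 10, 7 were positive, the median was 0.09, and 4 had an unadjusted p under 0.05, as had 16.7% of all genes so tested. With all 15 arrays Slc27a1, Plin2 and Cidea, which passed without the pair, had 0.47, 1.02 and 0.51 (limma adjusted p = 0.105, 0.0948 and 0.103), and no list had a gene past the threshold, as had none of all 10514 genes, against a background of 0%; 1547 of those genes had an unadjusted p under 0.05.

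Of the other acyltransferases and phosphatases, 10 of 13 were measured, 6 were positive with a median of 0.13, and 0 passed limma, with 2 at an unadjusted p under 0.05. Mogat2, which acylates monoacylglycerol, had the smallest p among higher genes, at 0.58 ± 0.16 (SE; limma adjusted p = 0.0855), and the phosphatase Plpp2 among lower genes, at -0.28 ± 0.18 (SE; limma adjusted p = 0.434). Mogat2 passed with median centring (limma adjusted p = 0.0457) and with the filter at the 60th percentile (0.0459). Of the other genes of glycerol and glycerol 3-phosphate supply, 12 of 14 were measured, 9 were positive with a median of 0.16, and 0 passed limma, with 1 at an unadjusted p under 0.05. That gene, the cytosolic aspartate aminotransferase Got1, had 0.42 ± 0.14 (SE; limma adjusted p = 0.133). Among lower genes the mitochondrial carrier Slc25a11 had the smallest p, at -0.07 ± 0.11 (SE; limma adjusted p = 0.785), and median centring turned its sign, to 0.05.

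In the acyl-CoA supply list 1 of 8 measured genes rose and the median was 0.06. Slc27a1, a fatty acid transport protein, rose by 0.55 ± 0.11 (SE; limma adjusted p = 0.037), with a lean mean of 2565 ± 283 (SD, n = 7) and an obese mean of 3820 ± 605 (SD, n = 6). It missed the threshold in 12 of the 13 fits that left out 1 more rat, all but that without obese rat 3 (limma adjusted p up to 0.0744). Its relative Slc27a4 had -0.38 ± 0.13 (SE; limma adjusted p = 0.154). In the list of storage and hydrolysis, 2 of 11 rose by their brightest probe set and the median was 0.01. Plin2, a coat protein of lipid droplets in many cell types, rose by 1.18 ± 0.21 and Cidea, a droplet protein of fat cells, by 0.60 ± 0.11 (SE; limma adjusted p = 0.0203 for both). Plin2 signal was 15281 ± 6790 (SD, n = 6) in obese rats and 6369 ± 1177 (SD, n = 7) in lean rats. Plin2 missed the threshold when obese rat 8 was left out (limma adjusted p = 0.0513) and Cidea when obese rat 7 was (0.0523), and both with no filter (0.0526). G0s2, an inhibitor of lipolysis, had -0.22 ± 0.13 (SE; limma adjusted p = 0.397).

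By the brightest probe set, genes that use diacylglycerol elsewhere and regulators did not pass. In the former list 7 of 10 were measured, 4 were positive with a median of 0.03, and the smallest p were those of the diacylglycerol kinase Dgkz, at 0.25 ± 0.17, and Pcyt2 of phosphatidylethanolamine synthesis, at -0.16 ± 0.11 (SE; limma adjusted p = 0.477 and 0.472). Among regulators 11 of 12 were measured, 5 were positive with a median of -0.04, and the smallest p were those of Thrsp, a lipogenic protein, at 0.33 ± 0.16, and the glucocorticoid receptor Nr3c1, at -0.18 ± 0.09 (SE; limma adjusted p = 0.297 and 0.307). In both lists limma passed 0, with 0 at an unadjusted p under 0.05.

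**Figure D5:**
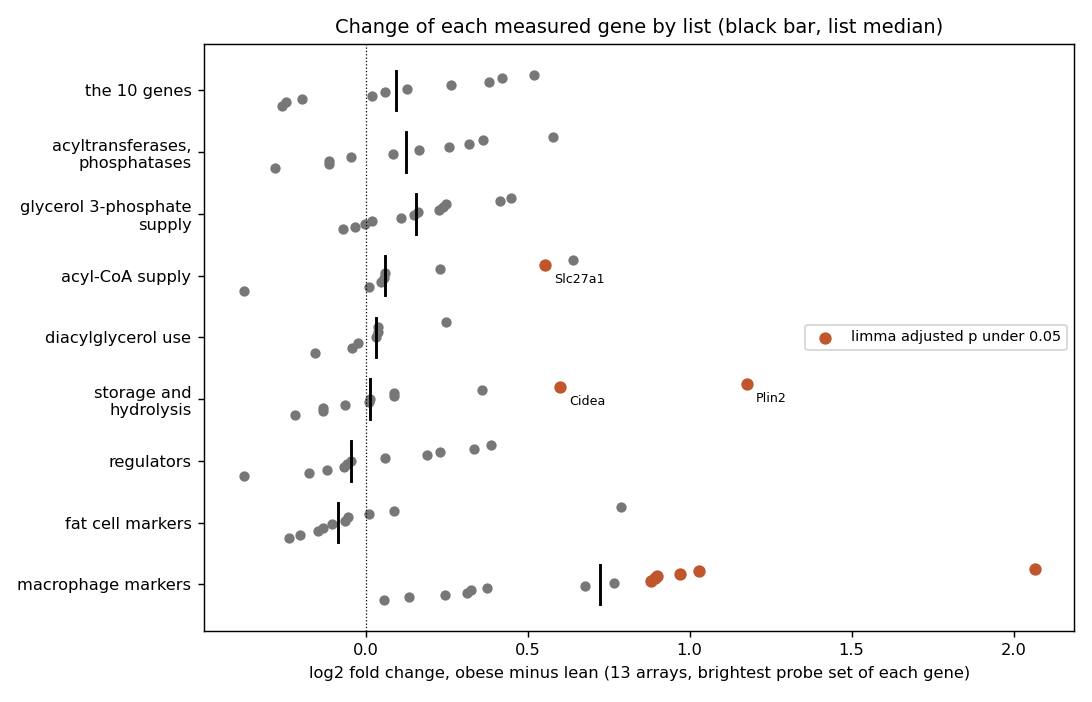
Log2 fold change of obese against lean rats (x axis, 13 arrays, brightest probe set of each gene) for each measured gene of the 10 genes, the 6 pathway lists and 2 marker lists; orange points have a limma adjusted p under 0.05 and black bars are list medians. The pathway medians lie between -0.04 and 0.16, and the macrophage median lies at 0.72.

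The macrophage markers and the Gapdh signal ratio were looked at in the same comparison. All 14 macrophage markers were measured and positive, with a median log2 fold change of 0.72 without the pair, and 6 rose. Their summed signal ran from 141353 to 322495 in the 6 obese rats and from 88306 to 141136 in the 7 lean rats, without overlap. With all arrays the obese range began at 117949, so the ranges overlapped, and none of the 14 passed. Without the pair the summed signal of 10 fat cell markers had a median of 532006 in obese rats (423030 to 885746). In lean rats the median was 641592 (455168 to 686450). Of the 10 markers 3 were positive, with log2 fold changes from -0.24 to 0.79 and a median of -0.08. None of the 10 passed in either set of arrays. The part of the macrophage difference in the Gpd1 and Lpin1 results was not tested. Degraded RNA raises the ratio of Gapdh signal at the 3 prime end to that at the 5 prime end. On the log2 scale the obese mean of this ratio was 0.72 ± 0.28 (SD, n = 6) and the lean mean 1.05 ± 0.28 (SD, n = 7; exact permutation test, two-sided, p = 0.0589), short of the threshold. With all 15 arrays the means were 0.77 ± 0.28 (SD, n = 7) and 1.05 ± 0.26 (SD, n = 8; exact permutation p = 0.0746). With that ratio as a covariate Gpd1 1369560_at had a log2 fold change of 0.92 and Lpin1 1377599_at of 0.67, both short of the threshold (limma adjusted p = 0.0828 and 0.0686). Over all 15 arrays they had 0.80 and 0.52 (limma adjusted p = 0.342 for both).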

How the data were processed

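Total RNA of epididymal fat was hybridised to 1 array per rat. For the RNA input the labels give 6 micrograms and the series' design text 5, and the extraction reagents differ too. The authors deposited intensity values, named as MAS5 signals in the submitters' processing notes; the version and its background correction are not given in the sources used here. They were used as deposited. Of 31099 probe sets, 57 controls were set aside.

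Before taking log2, 79.9 (the 10th percentile of the signals) was added, so fold changes understate those of dim genes. The filter kept the 18625 probe sets whose mean lay above the 40th percentile. The number of arrays limits the precision. Obese and lean rats were compared by limma (version 3.58.1, R 4.3.3, lmFit then eBayes) with Benjamini-Hochberg adjustment over all kept probe sets and a threshold of 0.05. Differences between genes, and single probe sets as a further check, went through exact permutation tests (two-sided), and correlations with 100000 permutations within groups. The platform annotation gave 1 gene for 20826 probe sets, several for 436 and none for 9780; 20758 had a current Entrez ID. Cross-binding between close relatives was not tested. Alternatives were other pseudocounts, filters and scalings, array weights, trend and robust, the rat number as a block, the Gapdh ratio as a covariate, other choices among a gene's probe sets and each rat left out. The members, lists and tests were chosen with earlier results of these data known. Named were every probe set of the 10 genes, of each list the genes past the threshold without the pair or else the smallest p in each direction, and the correlations past the threshold. The marker lists for endothelium, mesothelium, progenitors and stroma, lymphocytes and mast cells had 7, 7, 6, 2 and 5 genes measured. Without the pair their median log2 fold changes were 0.12, -0.31, 0.02, -0.26 and -0.26. In the stroma list 3 of 6 were positive, with values from -1.04 to 0.82, and Col1a1 alone passed, higher in obese rats. With all 15 arrays Col1a1 had 0.71 (limma adjusted p = 0.103). The muscle list, with 2 measured, had -0.02, and Clu, the gene measured of the testis and epididymis list, fell by 0.76. The limma script was first run on simulated data. Plots used matplotlib 3.10.9 (Python 3.11.15).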

Additional observations from a re-analysis of the deposited data

Results flagged for a closer look

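In 80 checks of the highest and lowest log2 value in a group, 20 probe sets in each group of both sets of arrays, 5 found a rat far from the rest; chance gives about 1 in 20. Obese rat 3 was the highest obese rat for Agpat2 without the pair, with a gap of 0.711 of the group's range and a signal of 6869 against a group median of 4925. The other 4 fell on Agpat3 probe sets below the filter. Obese rat 6 was low on 1380480_at, with a gap of 0.719 in both sets of arrays and a signal of 98.8 against a median of 245.7. Obese rat 3 was high on 1396569_at, with a gap of 0.649 in both sets and a signal of 401.7 against medians of 52.9 and 59.4.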

How the results depend on the processing

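With 15 arrays 0 of the 10 genes' probe sets passed, and 2 did, Gpd1 1369560_at and Lpin1 1377599_at, with the filter at the 60th percentile (limma adjusted p = 0.0401 and 0.0411); leaving out 1 rat gave 0 to 2, the 2 without obese rat 1. Without the pair 2 passed, and leaving out 1 more rat gave 2 to 3. There 5 passed with median centring, which moved the median of all probe sets from -0.04 to 0.07. With the Gapdh ratio, with 1 probe set per gene and by exact permutation 0 passed. The smallest p that exact permutation can give there came to 0.0571 after adjustment. With the replicate block, the rat number as a block, 0 passed: Gpd1 1369560_at had 1.17 and Lpin1 1377599_at 0.70 (limma adjusted p = 0.137 and 0.185). The numbers name different rats, so they were not taken as pairs. Over 7 shared numbers the deviations of the obese and the lean rat correlated from -0.11 to 0.24. Rats of unlike numbers were not compared in this way, so these values cannot decide whether a number carries a shared effect. Over all probe sets leaving out 1 rat gave 51 to 262 calls, against 189 without the pair, and with 15 arrays 245 without obese rat 1 and 0 to 1 otherwise. The block left 3 calls and the Gapdh ratio 14. Without the pair the count was 334 with the filter at the 60th percentile, 46 with none and 309 with trend and robust. It was 389 with median centring, 124 with quantile normalization and 123 with a pseudocount of 1.

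Pathway list genes past the threshold numbered 3 without the pair, and 0 with no filter, with the block and with the Gapdh ratio; leaving out 1 more rat gave 1 to 3. With 15 arrays they numbered 0, and 1 with the filter at the 60th percentile; leaving out 1 rat gave 0 to 3. Of the 4 gene pairs 1 passed in both sets of arrays, 0 with quantile normalization and 3 with means over probe sets, and with 15 arrays 2 with a pseudocount of 1; leaving out 1 rat gave 0 to 2. Of the correlations 1 passed, 0 with median centring and with quantile normalization, and leaving out 1 rat gave 0 to 3. Of 1602 single values under an alternative, 1486 kept direction and side of the threshold and 40 turned sign, none of them called. With 15 arrays and without the pair, Gpam 1369758_at turned to 0.034 and 0.087 with median centring and to 0.039 and 0.093 with quantile normalization, Slc25a11 to 0.036 and 0.047 with median centring and to 0.046 and 0.093 with the Gapdh ratio, Aqp7 to -0.099 and -0.098 with quantile normalization and to -0.025 and -0.027 with array weights, and Agpat3 1382041_at to -0.042 and -0.028 with array weights. With the block and without the pair, Gpam 1369758_at turned to 0.048, Agpat3 1382041_at to -0.081 and Aqp7 to -0.028. With 1 rat left out, these ran from -0.17 to 0.012 for Gpam, from -0.069 to 0.10 for Agpat3 and from -0.054 to 0.058 for Aqp7 with 15 arrays, and from -0.15 to 0.071, from -0.053 to 0.15 and from -0.037 to 0.066 without the pair. The causes were not tested.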
